A study of Mus musculus with 12 samples.

Results

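The genes described here encode 32 enzymes of fuel oxidation in mouse fat, most of them mitochondrial: 20 genes of fatty acid oxidation and 12 genes of the citric acid cycle. They were chosen by name, as the rows of the count tables whose Ensembl identifier carries one of the member symbols, and each of the 32 symbols matched 1 of the 55536 rows. Poly-A RNA was sequenced from BAT (brown adipose tissue, the heat-producing depot) and IWAT (inguinal white fat) of C57BL/6 mice, with 3 libraries in each of 4 groups. The KI-HFD groups carry the genotype label Adv-CGRPalpha+/- and HFD (high-fat diet) in their titles, and the WT-NC groups are wild type with NC (normal chow) in theirs. Genotype and diet therefore change together, and their effects cannot be told apart. The labels give neither age nor sex, and do not say which cells the Adv-CGRPalpha allele acts in or what it does to them. The series text gives 3 animals per group, and the p-values below measure the spread between these libraries.

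Fatty acids enter the mitochondrion through the carnitine shuttle, in which carnitine palmitoyltransferase 1 at the outer membrane is the step held back by malonyl-CoA. Inside, beta-oxidation shortens the acyl chain in repeated rounds of dehydrogenation, hydration, a further dehydrogenation and thiolysis, each round releasing acetyl-CoA that citrate synthase feeds into the citric acid cycle. Brown fat is rich in mitochondria and burns fatty acids for heat, whereas white fat mainly stores them.

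Promoter windows of 300 bases, from 250 before to 50 after the start site, were taken from RefSeq on GRCm38.p6 and matched 28 of the 32 genes in 33 windows. The windows below are shown for Acadm and Mdh2, which hold a motif that was searched for, as most members do not. The window of Hadhb is shown because it overlaps that of its neighbour Hadha. Levels of these genes are described below. In Acadm (chr3:153944594-153944893, minus strand) the capitals mark TGACCTT, the nuclear receptor motif AAGGTCA read on the opposite strand, at bases -249 to -243 from the start. In Mdh2 (chr5:135778399-135778698, plus strand) they mark the cyclic AMP response element TGACGTCA at bases -127 to -120. In Hadhb (chr5:30155003-30155302, plus strand) they mark the 228 bases that also lie in the window of Hadha, which is read from the other strand at 30154931 to 30155230.
Acadm: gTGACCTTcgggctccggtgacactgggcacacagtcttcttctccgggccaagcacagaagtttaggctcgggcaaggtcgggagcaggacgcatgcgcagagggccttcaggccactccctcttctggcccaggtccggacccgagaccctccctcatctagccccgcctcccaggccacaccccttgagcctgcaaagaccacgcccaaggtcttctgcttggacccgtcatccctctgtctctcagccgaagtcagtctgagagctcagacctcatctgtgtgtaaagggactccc
Mdh2: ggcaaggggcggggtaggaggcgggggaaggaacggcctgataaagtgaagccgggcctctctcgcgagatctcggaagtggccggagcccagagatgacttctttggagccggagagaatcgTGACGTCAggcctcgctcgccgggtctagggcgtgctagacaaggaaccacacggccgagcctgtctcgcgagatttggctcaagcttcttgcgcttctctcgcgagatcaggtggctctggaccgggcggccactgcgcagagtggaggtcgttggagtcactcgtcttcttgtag
Hadhb: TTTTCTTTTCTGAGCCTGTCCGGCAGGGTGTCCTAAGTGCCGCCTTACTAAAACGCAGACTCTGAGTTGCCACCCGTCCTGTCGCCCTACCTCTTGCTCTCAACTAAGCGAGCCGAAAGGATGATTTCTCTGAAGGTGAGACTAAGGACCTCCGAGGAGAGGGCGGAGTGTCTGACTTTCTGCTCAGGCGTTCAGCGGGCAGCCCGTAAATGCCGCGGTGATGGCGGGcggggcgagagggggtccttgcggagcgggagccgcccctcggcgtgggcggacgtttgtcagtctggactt
The RefSeq starts of Hadha and Hadhb, which encode the subunits of the trifunctional protein, lie 272 bases apart. Searched on both strands, AAGGTCA was found in 2 of the 28 genes (7.14%, against 5.38% of 27025 genes) and TGACGTCA in 2, Mdh2 and Ogdh (7.14%, against 2.03%). The palindromic motif of the factor NRF1 was found in Etfdh alone among the 28 (3.57%, against 1.07%). The DR1 motif, a direct repeat bound by PPAR receptors, was found in 0 of the 28, against 0.05% of all genes. These matches are letters in a fixed window and say nothing of binding.

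The libraries held 17408621 to 23514095 gene counts. Brown adipocyte markers summed to 9943 to 19256 CPM in BAT libraries, against 129 to 270 CPM in IWAT libraries. General adipocyte markers summed to 16307 to 30082 CPM in BAT and to 29535 to 45485 CPM in IWAT. The list held no marker of white fat alone; Lep, the leptin gene, known for its expression in white fat and picked from that list after its values were seen, had 71.2 to 1121 CPM in BAT and 2702 to 6993 CPM in IWAT. Levels are given in CPM, counts brought to a common library size, after scaling by the trimmed mean of M values (TMM). Skeletal muscle transcripts varied most in CPM. They summed to 20866, 15466 and 3021 CPM in BAT KI-HFD libraries, against 25056, 86359 and 782 CPM in BAT WT-NC libraries. Across IWAT they summed to 83.6 to 1249 CPM. Lymphocyte markers reached 678 CPM in IWAT KI-HFD replicate 3, against 5.15 to 38.0 CPM in the other IWAT libraries. Epithelial and mammary markers reached 55.1 CPM in IWAT WT-NC replicate 2, against 0.414 to 2.83 CPM in the other IWAT libraries. The number in each library's name falls into a lower series (200s) or a higher series (500s), whose meaning the labels do not give. Each group holds 1 library of the higher series: replicate 1 of BAT KI-HFD and replicate 3 of BAT WT-NC, IWAT KI-HFD and IWAT WT-NC.

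The 32 genes took a far larger part of the RNA in brown than in white fat. Together they held 7.75, 6.20 and 4.53% of the scaled counts in BAT KI-HFD libraries, against 0.911, 1.21 and 0.793% in IWAT KI-HFD libraries. In WT-NC they held 3.16, 3.11 and 5.98% in BAT, against 0.852, 0.943 and 0.820% in IWAT. The lowest BAT library of either group lay above the highest IWAT library. In BAT, the fatty acid oxidation genes summed to 44544, 36458 and 26705 CPM in KI-HFD libraries, against 18045, 17295 and 33798 CPM in WT-NC libraries. The citric acid cycle genes summed to 32929, 25548 and 18571 CPM in BAT KI-HFD libraries, against 13559, 13788 and 26002 CPM in BAT WT-NC libraries. In both sums BAT KI-HFD was above WT-NC except for WT-NC replicate 3, which exceeded KI-HFD replicate 3 in both and KI-HFD replicate 2 in the cycle genes. The ratio of the first sum to the second stayed between 1.23 and 1.44 in all 12 libraries. It was 1.35, 1.43 and 1.44 in BAT KI-HFD libraries, against 1.33, 1.25 and 1.30 in BAT WT-NC libraries, so the groups did not overlap.

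**Figure D1:**
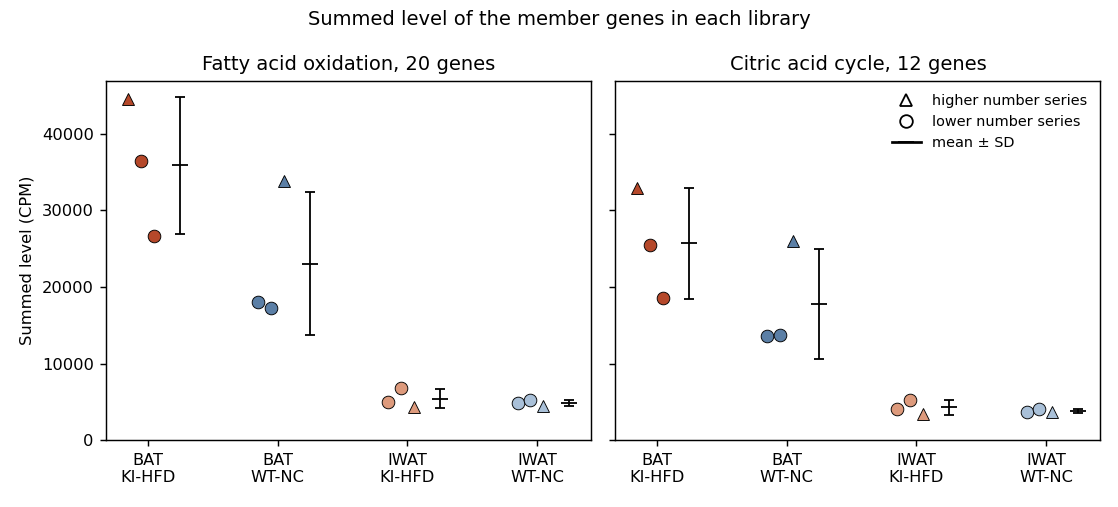
Summed level in CPM of the 20 fatty acid oxidation genes (left) and the 12 citric acid cycle genes (right) in each library, by group. Triangles are libraries of the higher number series, circles those of the lower, and the bars give mean ± SD (n = 3); the BAT libraries lie far above the IWAT libraries in both sums, and the highest BAT WT-NC point, at 33798 and 26002 CPM, is the higher-series library.

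In bulk tissue, fewer cells of a type and less RNA per cell cannot be told apart, which holds for every difference below. Between depots, 30 of the 32 genes passed edgeR's quasi-likelihood test in KI-HFD mice, 29 of them higher in BAT and 1 lower, where 17.2% of all 17395 genes tested were called higher and 18.8% lower. In WT-NC mice the counts were again 29 higher and 1 lower, against 14.9% and 13.5% of all genes. The median log2 fold change of BAT over IWAT was 2.31 in KI-HFD and 2.11 in WT-NC for fatty acid oxidation and 2.47 and 2.07 for the cycle, against -0.04 and -0.02 over all genes. With library totals in place of TMM the median of all genes moved to -0.30 in KI-HFD and -0.20 in WT-NC, and 29 members were still higher in each. The number in the library name could serve as a block only for the 10 libraries that share it across depots, which leaves out BAT WT-NC replicate 1 and IWAT WT-NC replicate 2. In WT-NC, 20 members were then higher and 1 lower, against 4.66% and 3.93% of all genes, while the same 10 libraries with no block gave 29 and 1, against 7.4% and 5.6%. Markers of other cell types moved with the depots. All 18 skeletal muscle markers were called higher in BAT in each group of mice, and all 6 fibroblast and progenitor markers lower (medians -2.99 in KI-HFD and -2.11 in WT-NC). Of 12 macrophage markers 12 were called lower in KI-HFD and 3 in WT-NC, and of 8 lymphocyte markers 8 in KI-HFD and 0 in WT-NC. Of 6 endothelial markers 4 were called higher in KI-HFD and 0 in WT-NC, and of 8 general adipocyte markers 3 and 4 were called lower. BAT WT-NC replicate 3 held 782 CPM of skeletal muscle transcripts and 5.98% of its scaled counts in the 32 genes, and IWAT WT-NC replicate 3 held 1249 CPM of muscle transcripts. The part of these cell types in the depot differences was not tested.

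The carnitine shuttle showed opposite depot differences for its CPT1 isoforms. Cpt1b, the muscle isoform (chromosome 15, 89416405 to 89425863, minus strand, GRCm38), had 21.9, 12.4 and 9.33 CPM in BAT KI-HFD libraries, against 0.224, 0.383 and 0.0399 CPM in IWAT KI-HFD libraries. In WT-NC, Cpt1b had 7.09, 6.30 and 13.6 CPM in BAT libraries, against 0.0753, 0.252 and 0.124 CPM in IWAT libraries. Every BAT library lay above every IWAT library, and Cpt1b rose by the largest step of the 32 genes, with a log2 fold change of 6.07 ± 0.68 (SE) in KI-HFD and 5.87 ± 0.69 in WT-NC. Its IWAT levels rest on 5, 8 and 1 counts in KI-HFD libraries and 2, 6 and 3 counts in WT-NC libraries, and 18.6% of its exonic bases belong to no other gene, the rest being shared mainly with the predicted gene Gm44502. Cpt1a, the liver isoform (chromosome 19, 3322334 to 3385733, plus strand), had 45.4, 47.1 and 34.8 CPM in BAT KI-HFD libraries, against 183, 104 and 123 CPM in IWAT KI-HFD libraries. In WT-NC, Cpt1a had 25.9, 38.0 and 78.9 CPM in BAT libraries, against 175, 159 and 229 CPM in IWAT libraries. It was the only member called lower in BAT, with a log2 fold change of -1.69 ± 0.36 in KI-HFD (edgeR adjusted p = 0.00375) and -1.98 ± 0.37 in WT-NC (0.00211), and its groups did not overlap. Cpt2, the inner membrane transferase shared by both routes, rose in BAT by 1.92 ± 0.44 in KI-HFD and 1.66 ± 0.43 in WT-NC on the log2 scale.

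**Figure D2:**
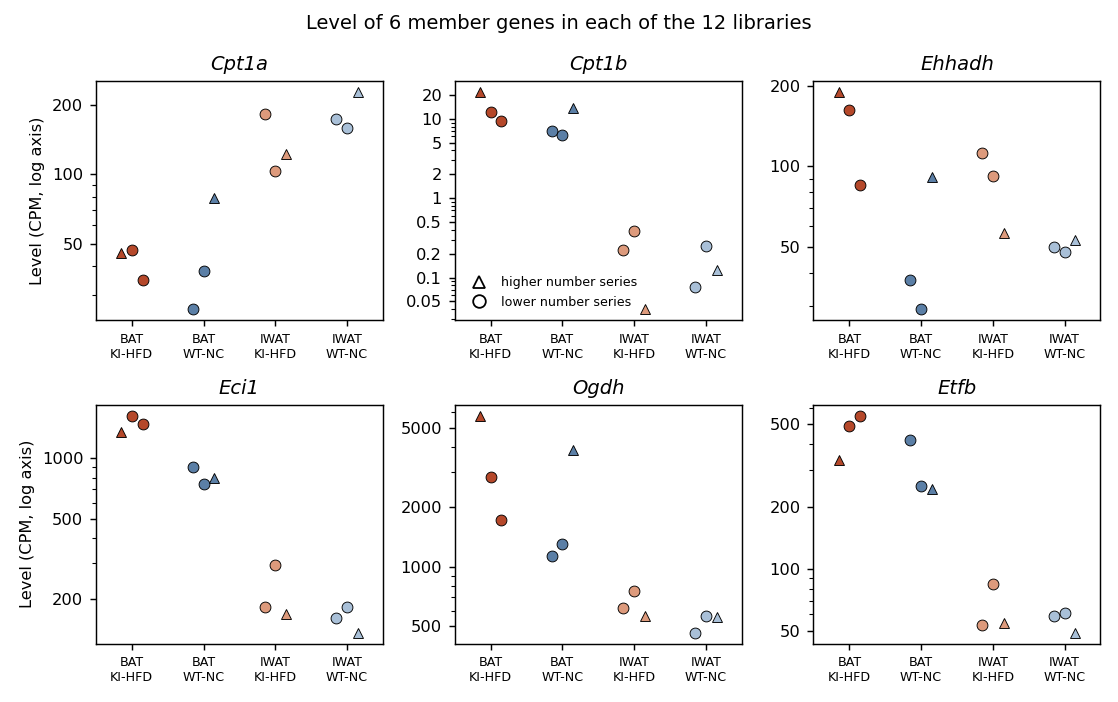
Level in CPM (log axis) of 6 member genes in each of the 12 libraries, with triangles for the higher and circles for the lower number series. Cpt1a is the gene that is lower in BAT than in IWAT, Cpt1b is near 0 in IWAT, Eci1 separates BAT KI-HFD (1339 to 1622 CPM) from BAT WT-NC (745 to 906 CPM), and Ogdh and Etfb show the higher-series BAT libraries at opposite ends of their groups.

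Among the members, the enzymes of the beta-oxidation rounds rose in BAT, except Acaa1a and Ehhadh, which are peroxisomal. Peroxisomal genes outside the members went both ways. Acox2 had log2 fold changes of 7.11 in KI-HFD and 8.12 in WT-NC, and Abcd2 of -2.61 and -1.96. Of the acyl-CoA dehydrogenases, which open each round, Acadvl (very long chains) rose by 3.67 ± 0.46 in KI-HFD and 3.34 ± 0.45 in WT-NC, and Acadl (long chains) by 3.31 ± 0.32 and 2.56 ± 0.31. Acadm (medium chains) rose by 2.31 ± 0.38 and 1.52 ± 0.37, and Acads (short chains) by 2.001 ± 0.33 and 1.59 ± 0.33. The 4 log2 fold changes were thus larger for longer chains in KI-HFD, in the order Acadvl, Acadl, Acadm, Acads, although the steps between Acadm and Acads and between Acadvl and Acadl were smaller than their SEs added. In WT-NC Acads and Acadm stood the other way round. Per-library values of Acadvl were 3892, 2954 and 1817 CPM in BAT KI-HFD libraries, against 191, 314 and 175 CPM in IWAT KI-HFD libraries. The same gene had 971, 1257 and 2893 CPM in BAT WT-NC libraries, against 159.6, 174 and 173 CPM in IWAT WT-NC libraries. No library of one depot reached the range of the other. Reads of Acadvl cannot be told apart from those of Dvl2 on the opposite strand where the 2 genes overlap, and 57.1% of its exonic bases are its own.

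Hadha and Hadhb, the subunits of the trifunctional protein for long chains, rose in BAT by 3.35 ± 0.40 and 3.59 ± 0.47 in KI-HFD and by 2.95 ± 0.40 and 2.96 ± 0.46 in WT-NC. These values lie within each other's SE in each diet group. Echs1 and Hadh, the hydratase and dehydrogenase for shorter chains, rose less, by 1.78 ± 0.33 and 2.04 ± 0.34 in KI-HFD. Acaa2, the mitochondrial thiolase that closes the round, had 6775, 6590.4 and 5199 CPM in BAT KI-HFD libraries, against 369, 476 and 306 CPM in IWAT KI-HFD libraries. In WT-NC, Acaa2 had 4196, 3169.5 and 5514 CPM in BAT libraries, against 314, 391 and 293 CPM in IWAT libraries. It rose by 4.01 ± 0.33 in KI-HFD (edgeR adjusted p = 7.56e-06) and 3.69 ± 0.32 in WT-NC (2.19e-05), the second largest step after Cpt1b. Its peroxisomal counterpart Acaa1a, by contrast, had 192, 216 and 189 CPM in BAT KI-HFD libraries, against 177, 207 and 158 CPM in IWAT KI-HFD libraries. The WT-NC libraries had 137, 134 and 151 CPM of Acaa1a in BAT, against 155, 195 and 157 CPM in IWAT. Acaa1a did not pass in either, with 0.14 ± 0.17 in KI-HFD and -0.26 ± 0.17 in WT-NC, and its near-identical copy Acaa1b makes its count uncertain. Ehhadh, the peroxisomal bifunctional enzyme, did not pass either, with 0.75 ± 0.41 and 0.07 ± 0.41. Etfa and Etfb, the flavoprotein that takes electrons from the acyl-CoA dehydrogenases, rose by 2.30 ± 0.32 and 2.85 ± 0.30 in KI-HFD, and Etfdh, which hands them to ubiquinone, by 3.05 ± 0.49. Only 41.8% of the exonic bases of Etfb belong to no other gene, so its count is uncertain. The accessory enzymes for unsaturated fatty acids Eci1 and Decr1 rose by 2.78 ± 0.26 and 2.11 ± 0.29, and the mitochondrial thioesterase Acot2 by 2.17 ± 0.24.

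All 12 citric acid cycle genes rose in BAT in both groups of mice. Suclg1, the subunit common to both succinyl-CoA ligases, had the largest step, with 2439, 2707 and 2031 CPM in BAT KI-HFD libraries, against 181, 236.5 and 156 CPM in IWAT KI-HFD libraries. In WT-NC, Suclg1 had 1422, 1507 and 2030.1 CPM in BAT libraries, against 175, 189.6 and 154 CPM in IWAT libraries. The log2 fold changes were 3.64 ± 0.27 in KI-HFD (edgeR adjusted p = 4.82e-06) and 3.26 ± 0.27 in WT-NC (1.76e-05), and Sucla2, its ADP-forming partner, rose by 3.25 ± 0.42 and 2.59 ± 0.41. Among the subunits of the NAD-dependent isocitrate dehydrogenase, the regulatory Idh3b had 2324, 2216 and 1702 CPM in BAT KI-HFD libraries, against 166, 261 and 176 CPM in IWAT KI-HFD libraries. The WT-NC libraries had 1255, 1156 and 1809 CPM of Idh3b in BAT, against 158, 183 and 171 CPM in IWAT. Idh3b rose by 3.37 ± 0.29 in KI-HFD and 3.04 ± 0.28 in WT-NC, Idh3g, the other regulatory subunit, by 2.99 ± 0.28 and 2.74 ± 0.28, and the catalytic Idh3a by 2.47 ± 0.35 and 2.05 ± 0.35. Idh2, the NADP-dependent mitochondrial enzyme, stood at the low end, with 1268, 1099.6 and 781 CPM in BAT KI-HFD libraries, against 299, 383 and 269 CPM in IWAT KI-HFD libraries. In WT-NC, Idh2 had 636, 902 and 1372 CPM in BAT libraries, against 266.03, 297 and 231 CPM in IWAT libraries. Its steps were 1.73 ± 0.30 and 1.87 ± 0.31. Dld, the dihydrolipoamide dehydrogenase that the 2-oxoglutarate and pyruvate dehydrogenase complexes share, had 1643, 1145 and 670.2 CPM in BAT KI-HFD libraries, against 309, 394 and 235 CPM in IWAT KI-HFD libraries. Its WT-NC levels were 474, 572 and 1314 CPM in BAT, against 275, 293 and 281 CPM in IWAT. Dld rose by 1.88 ± 0.41 in KI-HFD and 1.47 ± 0.41 in WT-NC, the smallest step of the cycle genes in WT-NC. There it no longer passed in 5 alternatives: the block on the library number over 10 libraries (edgeR adjusted p = 0.118, against 0.0439 in those 10 with no block), and without BAT WT-NC replicate 3 (0.0617) or any 1 of the 3 IWAT WT-NC libraries (0.0568 to 0.0665).

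**Figure D3:**
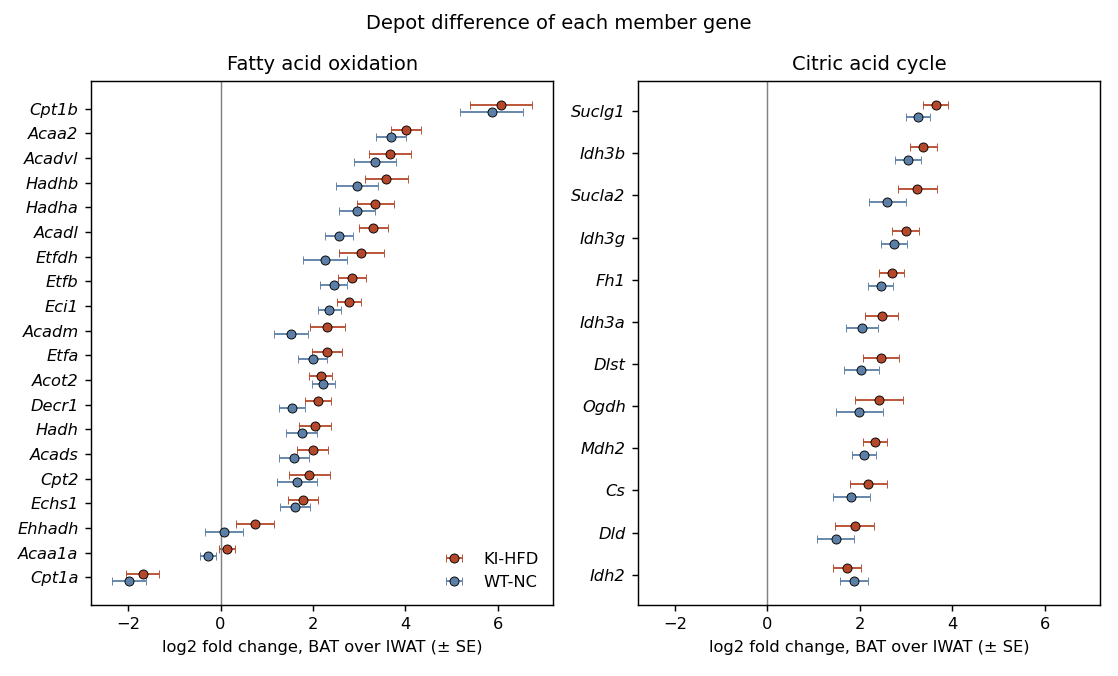
log2 fold change of BAT over IWAT (± SE, edgeR, 12 libraries) for each member gene, in KI-HFD and WT-NC mice, ordered by the KI-HFD value. Points right of 0 are higher in BAT: Cpt1b stands farthest right at 6.07 and 5.87, and Cpt1a is the only gene far to the left, at -1.69 and -1.98. Acaa1a lies near 0 in both groups of mice, and Ehhadh lies near 0 in WT-NC and to the right of it in KI-HFD.

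Levels of different genes were compared per kilobase of the principal transcript, for the 29 members with at least 90% of their exonic bases to themselves. In BAT KI-HFD the highest mean levels were 4082 ± 568 CPM per kilobase for Acaa2, 2779.5 ± 524 for Acadl, 1969.5 ± 409 for Etfa, 1922 ± 146 for Mdh2 (malate dehydrogenase) and 1689 ± 551 for Acadm (SD, n = 3 each). Neighbours from Etfa to Acadm in that order differed by less than their SDs added. The lowest were Acaa1a at 113 ± 8.24, Ehhadh at 48.9 ± 18.3, Acot2 at 40.7 ± 7.80 and Cpt1a at 9.83 ± 1.54 CPM per kilobase. The bound of 90% does not take near-identical copies elsewhere into account. Acaa1a and Acot2 have such copies, Acaa1b and Acot1, so their low levels are uncertain. In IWAT KI-HFD Etfa stood first at 399.6 ± 91.1 and Acaa2 seventh at 253 ± 56.6 CPM per kilobase. As a description across these 29 genes, which share their libraries, the Spearman correlation of levels was 0.852 between BAT and IWAT in KI-HFD and 0.869 in WT-NC. Within a depot, that between KI-HFD and WT-NC was 0.992 in BAT and 0.975 in IWAT.

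In brown fat, 31 of the 32 genes had a higher mean in KI-HFD than in WT-NC, but none passed the test. With edgeR's quasi-likelihood test 0 of the 32 were called, where 0.0% of the 15726 genes tested were called higher and 0.0445% lower, and 3 had an unadjusted p under 0.05 (7.91% of all genes). Above 0 lay 50.5% of all genes. The median log2 fold change was 0.61 for fatty acid oxidation and 0.54 for the citric acid cycle, against 0.00 over all genes, and 28 of the 32 genes overlapped between the groups. Separated with KI-HFD higher were Acaa1a, Eci1, Idh3g and Suclg1, 4 of 32, against 6.94% of all genes. For Idh3g and Suclg1 the lowest KI-HFD and highest WT-NC values were nearly equal. DESeq2 called 1 member, Eci1, where it called 0.477% of all genes higher and 1.23% lower, and the authors' deposited table also has 1 member, Eci1, past the threshold, against 0.363% of its genes called higher.

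The 3 members with an unadjusted p under 0.05 in BAT were Ehhadh, Eci1 and Acaa1a. Ehhadh had 190.2, 162 and 85.0 CPM in KI-HFD libraries, against 37.6, 29.2 and 91.6 CPM in WT-NC libraries. All KI-HFD libraries were above WT-NC replicates 1 and 2, but the lowest was below WT-NC replicate 3. The log2 fold change was 1.46 ± 0.46 (edgeR adjusted p = 0.477), and with no filter on low counts Ehhadh passed (0.0413). Eci1, the enoyl-CoA isomerase for unsaturated fatty acids, had 1339, 1622 and 1470.4 CPM in KI-HFD libraries, against 906, 745 and 796 CPM in WT-NC libraries. The groups did not overlap, at 0.84 ± 0.27 (edgeR adjusted p = 0.491, DESeq2 adjusted p = 0.0107). Acaa1a also kept its groups apart, at 0.49 ± 0.20 (edgeR adjusted p = 0.606). Acadm had 4606, 3412 and 2352 CPM in KI-HFD libraries, against 1435, 1640.0 and 3311 CPM in WT-NC libraries, and Acadl had 6238, 5489.9 and 4249 CPM in KI-HFD libraries, against 2714, 2529 and 4389 CPM in WT-NC libraries. In both, KI-HFD replicate 3 was below WT-NC replicate 3, and the log2 fold changes were 0.70 ± 0.44 and 0.72 ± 0.38. Echs1 had 1779, 1491 and 1189 CPM in KI-HFD libraries, against 710.0, 752 and 1365 CPM in WT-NC libraries, and Acot2, whose reads may be split with its near-identical neighbour Acot1, had 103, 94.8 and 70.1 CPM in KI-HFD libraries, against 49.4, 53.1 and 81.3 CPM in WT-NC libraries. Their groups overlapped through the same WT-NC library, at 0.65 ± 0.35 and 0.53 ± 0.25. Acadvl stood at 0.76 ± 0.49, Acaa2 at 0.52 ± 0.37 and Cpt1b at 0.68 ± 0.42. Cpt1a was the only member below 0, at -0.17 ± 0.37, and lay above 0 without WT-NC replicate 3 (0.38) and within the lower number series (0.32).

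Among the cycle genes, Ogdh and Dlst, the first components of the 2-oxoglutarate dehydrogenase complex, had the largest BAT differences. Ogdh had 5739, 2814 and 1722 CPM in KI-HFD libraries, against 1133, 1297 and 3867 CPM in WT-NC libraries, and Dlst had 1805, 1193 and 822 CPM in KI-HFD libraries, against 529, 541 and 1255 CPM in WT-NC libraries. The highest WT-NC library exceeded KI-HFD replicates 2 and 3 in both, and the log2 fold changes were 0.71 ± 0.61 and 0.71 ± 0.45. Idh3g had 2447, 2277 and 1788 CPM in KI-HFD libraries, against 1354, 1169 and 1781 CPM in WT-NC libraries. Its groups did not overlap, although the lowest KI-HFD and highest WT-NC values were close, at 0.59 ± 0.32 (edgeR adjusted p = 0.732). Cs, citrate synthase, had 3529, 2297 and 1582 CPM in KI-HFD libraries, against 1251, 1179.6 and 2890.5 CPM in WT-NC libraries, a difference of 0.47 ± 0.47. Here too WT-NC replicate 3 lay above KI-HFD replicates 2 and 3. Idh2 had the smallest difference of the cycle genes, 0.11 ± 0.36, and lay below 0 with library totals (-0.047) and when replicate 1 of KI-HFD (-0.06) or of WT-NC (-0.15) was left out. The cycle genes not given here by library, Idh3a, Sucla2, Fh1 (fumarase) and Mdh2, lay between 0.36 and 0.69.

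**Figure D4:**
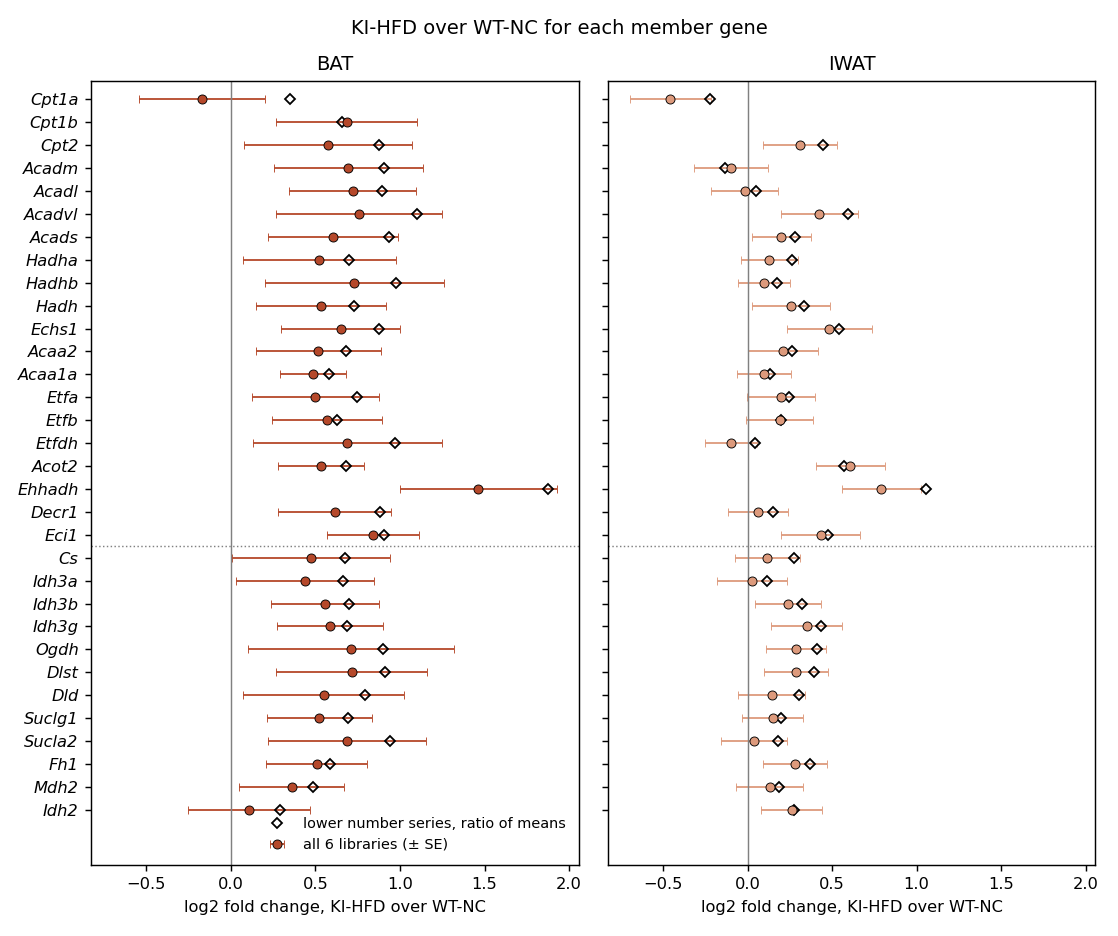
log2 fold change of KI-HFD over WT-NC (± SE, edgeR, 6 libraries) for each member gene in BAT (left) and IWAT (right), with fatty acid oxidation genes above the dotted line and citric acid cycle genes below it. Open diamonds are the log2 ratio of means within the lower number series (2 libraries against 2); in BAT 31 of 32 filled points lie right of 0, with medians of 0.61 and 0.54, and Cpt1b has no IWAT point because it was not tested there.

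Cell type markers differed along with the BAT groups. Brown adipocyte markers summed to 19256, 17766 and 17641 CPM in BAT KI-HFD libraries, against 13221, 9943 and 13338 CPM in BAT WT-NC libraries. Macrophage markers summed to 178, 204 and 226 CPM in BAT KI-HFD libraries, against 367, 844 and 1465 CPM in BAT WT-NC libraries, with 12 of 12 genes below 0. Of those 12, edgeR called 0 (11 had an unadjusted p under 0.05) and DESeq2 7. General adipocyte markers summed to 26221, 28397 and 30082 CPM in BAT KI-HFD libraries, against 24821, 16307 and 23860 CPM in BAT WT-NC libraries. Lymphocyte markers were low, at 9.05 ± 2.67 CPM in BAT KI-HFD and 14.3 ± 2.36 CPM in BAT WT-NC (SD, n = 3 each). None of these 4 sums overlapped between the groups. All 6 fibroblast and progenitor markers lay below 0 (median -0.98, 1 at an unadjusted p under 0.05, 0 called), although their sums overlapped, and of 6 endothelial markers 4 lay below 0. The part of these cell types in the member levels was not tested. All 18 skeletal muscle genes lay below 0, and of these edgeR and DESeq2 each called 0, with 0 at an unadjusted p under 0.05. The WT-NC library richest in muscle transcripts, replicate 2 with 86359 CPM, had the lowest member sum of the 6. The poorest, replicate 3 with 782 CPM, had the highest sum in its group. In KI-HFD the order ran the other way. Replicate 1, the richest in muscle transcripts at 20866 CPM, had the highest member sum of its group. Replicate 3, the poorest at 3021 CPM, had the lowest. The part of muscle transcripts in the member levels was not tested.

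The BAT library of the higher number series had the highest member sum in each group, and the size of the difference followed transcript length. Set against the mean of the lower-series libraries of its group, KI-HFD replicate 1 was higher for 29 of the 32 genes (median log2 ratio 0.46) and WT-NC replicate 3 for 30 (0.95). The corresponding medians over all genes were 0.11 and 0.13. Across the 32 genes, which share these libraries, the Spearman correlation of that log2 ratio with the length of the principal transcript was 0.622 in KI-HFD and 0.704 in WT-NC. Over 10529 and 10843 genes with a mean of at least 5 CPM it was 0.204 and 0.0248. Etfb, the shortest at 893 bases, had the lowest ratios, -0.63 in KI-HFD and -0.48 in WT-NC, and Ogdh, at 4127 bases, the highest, 1.34 and 1.67. Eci1, at 1137 bases, had -0.21 and -0.05. The share of BAT reads that the count tables leave without a gene was 31.7 and 32.2% in these higher-series libraries of KI-HFD and WT-NC, against 38.7 to 46.5% in the others. In IWAT the higher-series library was higher for 0 of 31 genes in KI-HFD (correlation -0.0339) and for 8 of 31 in WT-NC (0.727). The part of length and of these shares in the member levels was not tested.

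**Figure D5:**
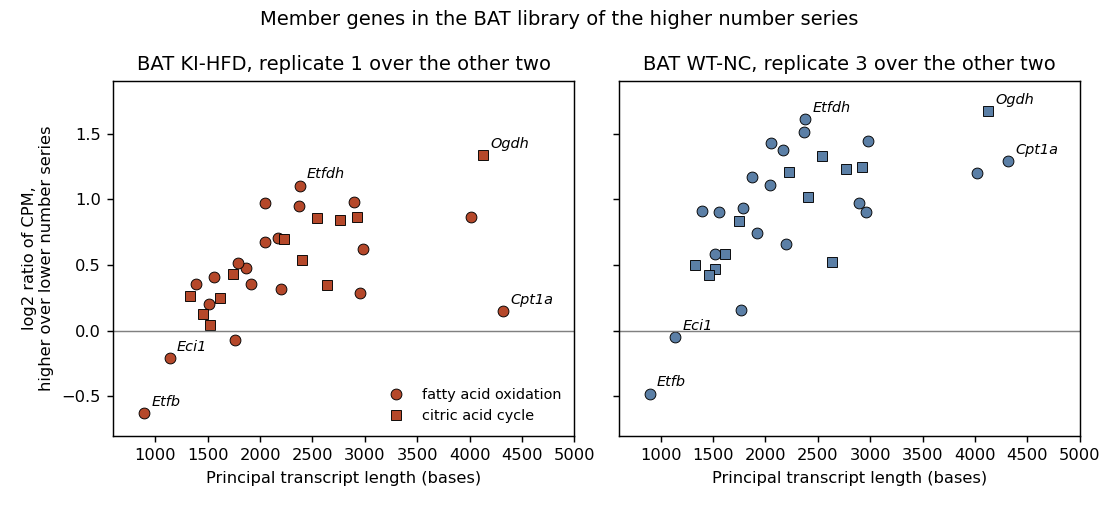
log2 ratio of CPM in the BAT library of the higher number series over the mean of the lower-series libraries of the same group, against the length in bases of the principal transcript, for each member gene in KI-HFD (left) and WT-NC (right). Longer transcripts lie higher in both panels (Spearman correlation 0.622 and 0.704), from Etfb at the lower left to Ogdh at the upper right, while Cpt1a in KI-HFD lies low for its length at 0.15.

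Within the lower number series, 30 of the 32 genes had both BAT KI-HFD libraries above both WT-NC libraries, against 23.8% of all genes, with median log2 ratios of 0.87 for fatty acid oxidation and 0.69 for the cycle. The single pair of the higher series gave 0.37 and 0.34, with 30 of 32 genes above 0 and no replicate. The 32 genes share these libraries. Skeletal muscle transcripts summed to 15466 and 3021 CPM in lower-series KI-HFD libraries, against 25056 and 86359 CPM in lower-series WT-NC libraries, without overlap. In the higher-series pair they summed to 20866 CPM in KI-HFD and 782 CPM in WT-NC. The part of muscle transcripts here was not tested. A fit that takes the number series as a batch called 0 members with edgeR, and 24 of 32 had an unadjusted p under 0.05, against 13.2% of all genes. In the lower series alone 13 of 32 had one (10.5% of all genes), and 0 were called. Leaving out BAT WT-NC replicate 3, the library of the higher series, raised the medians to 1.00 and 0.81, with 25 of 32 at an unadjusted p under 0.05 (12.7% of all genes) and 0 called. Without KI-HFD replicate 1 the medians were 0.42 and 0.34. The direction of the BAT medians thus held in each number series, while their size depended on which library of the higher series was kept.

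In white fat no member passed the test between the groups. Of the 31 members tested, 27 lay above 0, against 55.0% of all 15881 genes, and 0 were called by edgeR, where 0.0% of all genes were called in either direction. At an unadjusted p under 0.05 there were 2 members, against 10.9% of all genes, and DESeq2 called 0 members, against 0.667% of all genes called higher and 1.48% lower. The medians were 0.20 for fatty acid oxidation and 0.19 for the cycle, against 0.04 over all genes. They rested on KI-HFD replicate 2: without it 13 of 31 genes lay above 0 and the medians were -0.01 and -0.03. Without KI-HFD replicate 3, the library with 678 CPM of lymphocyte markers, 30 of 31 lay above 0 and the medians were 0.32 and 0.32. Within the lower number series 13 of the 32 genes separated with KI-HFD higher, against 21.4% of all genes, and the higher-series pair had 17 of 32 above 0 (medians -0.00 and 0.02). Brown adipocyte markers summed to 129, 270 and 149 CPM in IWAT KI-HFD libraries, against 208, 238 and 229 CPM in IWAT WT-NC libraries. The highest was KI-HFD replicate 2, the library on which the medians rested. Of 9 brown adipocyte markers tested, 7 lay below 0. Of the 9, 3 had an unadjusted p under 0.05, edgeR called 0, and DESeq2 called 1 lower. Endothelial markers summed to 766, 383 and 701 CPM in IWAT KI-HFD libraries, against 848, 856 and 1231 CPM in IWAT WT-NC libraries, groups that did not overlap. Skeletal muscle genes lay below 0 in IWAT for 17 of 17 tested (11 at an unadjusted p under 0.05, 0 called by edgeR, 3 by DESeq2), and macrophage genes for 12 of 12 (3, 0 and 2). Lymphocyte genes lay above 0 for 8 of 8 (3, 0 and 0), with KI-HFD replicate 3 the high library. The part of these cell types in the member levels was not tested.

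Ehhadh and Acot2 had the lowest p in IWAT. Ehhadh had 112, 91.7 and 56.5 CPM in KI-HFD libraries, against 49.9, 47.6 and 52.9 CPM in WT-NC libraries, with every KI-HFD library above every WT-NC library, although the lowest KI-HFD and highest WT-NC values were close. The log2 fold change was 0.79 ± 0.23 (edgeR adjusted p = 0.347). Acot2 had 17.2, 24.7 and 17.9 CPM in KI-HFD libraries, against 13.5, 14.4 and 11.3 CPM in WT-NC libraries, again with no overlap, at 0.61 ± 0.20 (edgeR adjusted p = 0.376). Another member without overlap was Acadvl at 0.42 ± 0.23, where 8.19% of all genes separated with KI-HFD higher. Eci1 had 183, 293 and 169 CPM in KI-HFD libraries, against 161, 182 and 136 CPM in WT-NC libraries, and Echs1 had 353, 604 and 342 CPM in KI-HFD libraries, against 302, 355 and 272 CPM in WT-NC libraries. In both genes KI-HFD replicate 2 alone exceeded the WT-NC range clearly, at 0.43 ± 0.23 and 0.48 ± 0.25. Cpt1a was the lowest member, at -0.46 ± 0.24, and Acadm, Acadl and Etfdh were the others below 0. Acadm had 641, 853 and 591 CPM in KI-HFD libraries, against 809.8, 826 and 595 CPM in WT-NC libraries, and Acadl had 494, 674 and 442 CPM in KI-HFD libraries, against 543, 585 and 500.2 CPM in WT-NC libraries. Those overlapping values gave -0.10 ± 0.22 and -0.02 ± 0.20. Of the cycle genes, Idh3g had 236, 363 and 222 CPM in KI-HFD libraries, against 208, 235 and 201 CPM in WT-NC libraries, and Ogdh had 621, 752 and 565 CPM in KI-HFD libraries, against 464, 566 and 559 CPM in WT-NC libraries. Their groups overlapped, at 0.35 ± 0.21 and 0.29 ± 0.18. Dlst had 219, 290.5 and 184 CPM in KI-HFD libraries, against 181, 206 and 181 CPM in WT-NC libraries, and Cs had 523, 663 and 448 CPM in KI-HFD libraries, against 443, 537 and 529.8 CPM in WT-NC libraries. They too overlapped, at 0.29 ± 0.19 and 0.12 ± 0.19. Cpt1b, with 1 to 8 counts per library, was below the filter and was not tested.

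Whether the KI-HFD difference was larger in brown than in white fat was tested as an interaction over all 12 libraries. The difference of differences was above 0 for 30 of the 32 genes, against 47.8% of all genes, with medians of 0.40 for fatty acid oxidation and 0.37 for the cycle. None was called by edgeR, where 0.0% of the 17395 genes were called, and 0 had an unadjusted p under 0.05 (4.78% of all genes). DESeq2 called 0 members, against 0.0862% of all genes called higher and 0.0747% lower. The lowest p belonged to Acadl at 0.75 ± 0.42 (edgeR adjusted p = 1.00), Acaa1a at 0.40 ± 0.24 and Acadm at 0.80 ± 0.51. Without BAT WT-NC replicate 3, 13 members had an unadjusted p under 0.05, against 1446 of the 18193 genes tested there, and 0 were called. The test thus did not separate the depots in their KI-HFD difference for any member.

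Genes that work beside the 32 were taken from 4 further lists, and those named here for their depot difference were chosen after their values were seen. Of 21 other fatty acid oxidation genes 12 rose and 1 fell in BAT over IWAT in KI-HFD, against 17.2% and 18.8% of all genes, and 9 rose and 1 fell in WT-NC, against 14.9% and 13.5%. The same percentages stand behind the counts of the other 3 lists. Slc25a20, the carnitine-acylcarnitine carrier between CPT1 and CPT2, rose by 3.38 ± 0.30 and 2.52 ± 0.29. Abcd2, a peroxisomal transporter of very long acyl chains, fell by 2.61 ± 0.47 and 1.96 ± 0.46 on the log2 scale. Acox2, a peroxisomal acyl-CoA oxidase, had the largest log2 fold change of the 21, at 7.11 in KI-HFD and 8.12 in WT-NC. Acsl1, the acyl-CoA synthetase that activates fatty acids before the shuttle, was at 0.08 ± 0.46 and -0.74 ± 0.46 and did not pass. Of 20 other genes of the cycle and of pyruvate entry 16 rose and 1 fell in each group of mice. Sdhb (succinate dehydrogenase) rose by 3.12 ± 0.28 and 3.05 ± 0.27, and Pdk4, the kinase that turns pyruvate dehydrogenase off, by 4.02 ± 0.41 and 3.80 ± 0.40. The gene that fell was Pdk3, another kinase of that complex, at -2.46 ± 0.31 and -1.07 ± 0.30. Of 5 cytosolic enzymes that share reactions or substrates with the cycle, 2 rose in KI-HFD (Acly at 2.47 ± 0.61 and Mdh1 at 0.75 ± 0.23) and 1, Acly, in WT-NC. Of 15 regulators of these genes 10 rose and 2 fell in KI-HFD, and 8 rose and 2 fell in WT-NC. The median log2 fold change of the 15 was 0.96 in each group of mice. The largest in KI-HFD was that of Esrrb, at 4.74. Ppara, a fatty acid receptor that drives oxidation genes, rose by 4.37 ± 0.45 and 4.64 ± 0.46, Ppargc1b, a coactivator of mitochondrial genes, by 3.34 ± 0.26 and 3.60 ± 0.26, while Nrip1, a corepressor of them, fell by 2.11 ± 0.31 and 1.74 ± 0.31.

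Between KI-HFD and WT-NC, edgeR called 0 genes of these 4 further lists in either depot. In BAT, 20 of the 21 other fatty acid oxidation genes lay above 0 (median 0.61, 6 at an unadjusted p under 0.05), as did 17 of 19 tested genes of the cycle and pyruvate entry (median 0.50, 1 such). Of all genes in BAT, 50.5% lay above 0 and 7.91% had an unadjusted p under 0.05. There 6.94% separated with KI-HFD higher, and DESeq2 called 0.477% higher. Decr2, a peroxisomal reductase for unsaturated fatty acids, had 199, 152 and 113 CPM in KI-HFD libraries, against 55.6, 52.3 and 92.8 CPM in WT-NC libraries, without overlap and at 1.20 ± 0.30 (edgeR adjusted p = 0.349, DESeq2 adjusted p = 0.0255). Pdp2, the phosphatase that turns pyruvate dehydrogenase on, had 85.7, 81.4 and 64.5 CPM in KI-HFD libraries, against 42.8, 36.0 and 43.6 CPM in WT-NC libraries, also without overlap, at 0.91 ± 0.20 (edgeR adjusted p = 0.277, DESeq2 adjusted p = 0.0141). Acacb, the acetyl-CoA carboxylase whose malonyl-CoA restrains CPT1, was above WT-NC without overlap in both depots. It had 930.2, 745 and 537 CPM in KI-HFD libraries, against 320.2, 317 and 394 CPM in WT-NC libraries in BAT. In IWAT it had 63.5, 144 and 68.9 CPM in KI-HFD libraries, against 34.9, 38.6 and 41.3 CPM in WT-NC libraries. The log2 fold changes were 1.09 ± 0.29 in BAT and 1.27 ± 0.31 in IWAT (edgeR adjusted p = 0.377 and 0.281, DESeq2 adjusted p = 0.0102 and 0.00633). DESeq2 also called Acad10, an acyl-CoA dehydrogenase family member, and Pdk3 in IWAT. Acad10 had 15.9, 20.8 and 15.6 CPM in KI-HFD libraries, against 7.98, 10.5 and 9.39 CPM in WT-NC libraries, and Pdk3 had 24.0, 15.4 and 17.4 CPM in KI-HFD libraries, against 7.75, 10.5 and 10.7 CPM in WT-NC libraries. Neither overlapped, at 0.91 ± 0.20 and 0.97 ± 0.23 (edgeR adjusted p = 0.254 and 0.279, DESeq2 adjusted p = 0.00937 and 0.0178). The other genes with the lowest p of each list in BAT were Hsd17b10 (0.65 ± 0.22), Eci2 (0.61 ± 0.22), Acaa1b (1.04 ± 0.37), Pdhx (0.72 ± 0.37), Suclg2 (0.63 ± 0.36), Sdhd (0.70 ± 0.33), Aco1 (0.68 ± 0.44), Esrra (0.53 ± 0.22), Ppargc1a (0.54 ± 0.28) and Tfam (0.50 ± 0.25), and none was called by either tool. In IWAT Me1, the cytosolic malic enzyme that makes NADPH, was the one below 0 among the cytosolic enzymes, at -0.59 ± 0.20 and not called. The 5 cytosolic enzymes had medians of 0.36 in BAT and 0.19 in IWAT, and the 15 regulators 0.33 in BAT and, for the 14 tested, 0.27 in IWAT. At an unadjusted p under 0.05 these held 0 and 2 genes in BAT and 1 and 3 in IWAT, where the other fatty acid oxidation genes held 4 of 20 tested (median 0.18) and those of the cycle and pyruvate entry 5 of 20 (0.25). Of all genes in IWAT, 10.9% had an unadjusted p under 0.05. There 8.19% separated with KI-HFD higher, and DESeq2 called 0.667% higher.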

How the data were processed

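RNA was extracted with Trizol and columns, and poly-A enriched, non-stranded libraries were read single-end, per the labels' protocols. FastQC, STAR, HTSeq, DESeq2 and GRCm38.p5 are named in the submitters' processing notes, with no versions; the counting mode and annotation are not given in the sources used here. The authors deposited whole-number counts per gene for each library, and comparison tables for BAT and IWAT. Those deposited tables hold a log2 fold change, scores (its standard error and the Wald statistic) and p-values with adjusted p-values. In BAT, 31.7 to 46.5% of the counted reads stood in 5 rows that name no gene (no feature, ambiguous and the like), which were left out; IWAT tables hold no such rows. No columns of other samples were found.

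Low counts were removed with filterByExpr of edgeR 4.0.16, at its minimum of 10. After TMM scaling, each gene was fitted by quasi-likelihood and compared by the F test of edgeR (R 4.3.3). Each KI-HFD against WT-NC comparison was fitted on the 6 libraries of its depot, and the depot comparisons and the interaction on all 12. P-values were adjusted over all genes tested (Benjamini-Hochberg, threshold 0.05), and fold changes use a prior count of 0.125. The SE of each edgeR log2 fold change was derived from the test, as its absolute value divided by the square root of the F statistic. Levels in CPM were scaled over all 12 libraries. Ratios of single libraries add 0.5 CPM. The smallest exact p for 3 against 3 is 0.1, so no exact test was run. DESeq2 1.42.0, other scalings, no filter, replicate blocks, the number series and each library left out were alternatives; the lower number series alone, and the 10 libraries whose number is in both depots with no block, were added for the depot comparisons after seeing the data. Non-stranded counts cannot separate genes overlapping on opposite strands. Of the gene identifiers, 55450 of 55536 matched GENCODE M21, which gave positions and lengths. The test was tried on simulated data before use.

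The members and lists were chosen with earlier results of these data known. All 32 members are named; values by library are given for 19: the CPT1 isoforms, those with the lowest p or largest difference between groups or depots per pathway, and those with the lowest interaction p. Of further lists, genes past the threshold or up to 4 with the lowest p per comparison were eligible; not all are printed.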

Additional observations from a re-analysis of the deposited data

How the results depend on the processing

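No alternative called a member in IWAT or in the interaction. In BAT, KI-HFD against WT-NC, 1 member was called without the filter on low counts (Ehhadh) and 1 by DESeq2 (Eci1), against 0. Leaving out each library in turn gave medians of 0.42 to 1.00 (fatty acid oxidation) and 0.34 to 0.81 (cycle) in BAT, and of -0.01 to 0.32 and -0.03 to 0.32 in IWAT. For BAT over IWAT it gave 2.10 to 2.49 and 2.27 to 2.69 in KI-HFD, with 30 members called each time, and 1.55 to 2.20 and 1.77 to 2.25 in WT-NC, with 27 to 30 called. In the lower number series alone, the cycle median of BAT over IWAT in KI-HFD was 2.08 and the fatty acid oxidation median in WT-NC 1.59; the cause was not tested. Direction turned for differences near 0. Leaving out each library in turn gave, in BAT, -0.49 to 0.38 for Cpt1a (0.38 without WT-NC replicate 3) and -0.15 to 0.43 for Idh2 (-0.15 without WT-NC replicate 1, -0.06 without KI-HFD replicate 1). In IWAT it gave -0.28 to 0.0075 for Acadm, -0.22 to 0.11 for Acadl, -0.020 to 0.21 for Acaa1a, -0.061 to 0.24 for Cs, -0.0085 to 0.36 for Idh3b, -0.068 to 0.31 for Dld and -0.044 to 0.28 for Suclg1; from Acaa1a on, the lowest value is the one without KI-HFD replicate 2. For BAT over IWAT it gave -0.60 to 0.35 for Ehhadh in WT-NC. The lower series alone gave 0.32 for Cpt1a in BAT, 0.046 for Acadl in IWAT and -0.50 for Ehhadh between depots in WT-NC. Library totals gave -0.047 for Idh2 in BAT, and between depots -0.11 for Acaa1a in KI-HFD and -0.12 for Ehhadh in WT-NC. The cause was not tested. Library totals gave 2226 genes higher and 4743 lower in BAT over IWAT in KI-HFD (3000 and 3269 with TMM) and 2063 and 3403 in WT-NC (2594 and 2346), and Acaa1a then passed as lower in WT-NC (-0.44, edgeR adjusted p = 0.0437).

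Deviations from the group mean correlated between same-numbered titles at -0.23, 0.224 and 0.112 in BAT and at -0.0915, 0.235 and 0.187 in IWAT. Between differently numbered titles they correlated at -0.277 to 0.142 in BAT and at -0.279 to 0.122 in IWAT. Deviations from a mean of 3 libraries constrain each other, so these values cannot show whether the title numbers pair the libraries. With the title number as a replicate block, 0 members were called in BAT (medians 0.68 and 0.55) and 0 in IWAT (0.18 and 0.17), and 11 genes in all were called in BAT, against 7. The number in the library name, shared across depots, gave correlations of -0.0679, 0.0688 and -0.0726 in KI-HFD and -0.108 and 0.00924 in WT-NC; as a replicate block it could use only the 10 libraries that share a number, and left 30 members called between depots in KI-HFD (medians 2.28 and 2.42), 21 in WT-NC (2.20 and 2.20) and 0 for the interaction. Those 10 libraries with no block, tried after seeing the data, gave 30 (2.29 and 2.45), 30 (2.22 and 2.32) and 0. Over all genes in WT-NC, 834 were higher and 703 lower with the block, 1323 and 1002 with no block, and 2594 and 2346 in all 12 libraries.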
